A study of Mus musculus with 24 samples.

Results

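The amino acid and peptide transporter families of the mouse intestine were taken as every measured gene whose symbol starts with Slc1a, Slc3a, Slc6a, Slc7a, Slc15a, Slc36a, Slc38a or Slc43a followed by a number. The members were found by symbol alone and not by their values. There were 61 such genes among 15267 genes measured, each with 1 probe set: 7 of the Slc1 family, 2 of Slc3, 18 of Slc6, 16 of Slc7, 5 of Slc15, 2 of Slc36, 8 of Slc38 and 3 of Slc43. Slc7a6os carries the name of the transporter gene it lies against on the opposite strand and is itself no transporter. The series compared mice lacking Amacr, the racemase of peroxisomes that acts in bile acid synthesis, with wild-type mice. The knockout group was Amacr-/- and the control group wild-type for Amacr. Both were male C57BL/6 mice of 3-3.5 months, and no other allele or agent is named in the labels. Each intestine was cut into 4 equal segments, numbered 1 to 4, and the layer scraped from each was measured with 3 arrays per genotype and segment, 24 arrays in all. Values are log2 signals, and the number of arrays limits the precision.

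Dietary protein reaches the epithelium of the small intestine as small peptides and free amino acids. Peptides and most amino acids are taken up across the brush border by transporters coupled to protons or sodium, or by exchangers, and leave the cell on the blood side through other exchangers and uniporters. Several exchangers are pairs of a heavy chain, encoded by an Slc3 gene, which brings the pair to the membrane, and a light chain of the Slc7 family, which transports the substrate.

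In all 4 segments the knockout arrays had less Amacr signal, with log2 differences of -3.08, -2.84, -1.95 and -2.08 in segments 1 to 4. The labels call the scraped layer endothelial. All 8 enterocyte markers were measured, and their mean log2 signal was 13.37 to 13.57, within 0.1 of its mean over all arrays on every array. The mean of 8 vessel endothelium markers was 4.75 to 5.54. The mean of 3 genes known from the ileal end (Slc10a2, Fabp6 and Fgf15), relative to its mean over all arrays, was 3.41 to 4.72 in segment 4 and -2.82 to -2.70 in segment 1 of the knockout, and 3.60 to 4.31 and -3.03 to -2.30 in the wild-type. In 6 arrays, markers of smooth muscle, fat or exocrine pancreas lay more than 1 log2 above their mean over all arrays. These arrays, high in markers of other tissues, were knockout replicate 3 of segment 1, knockout replicates 1 and 3 of segment 2, knockout replicate 3 of segment 3, wild-type replicate 1 of segment 1 and wild-type replicate 3 of segment 2. In these scrapings, fewer cells of a type and less RNA per cell cannot be told apart.

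Along the intestine the transporters split in opposite directions in both genotypes. The glutamate transporter Slc1a1, the broad neutral and cationic amino acid transporter Slc6a14 and the brush border pair Slc3a1 and Slc7a9 were higher in segment 4 than in segment 1. The heavy chain of the blood side Slc3a2, its light chain Slc7a8 and the uniporter Slc43a2 were lower. Between segment 4 and segment 1, 18 of 61 members differed in the knockout (11 higher, 7 lower; 29.5%, against 30.3% of all genes, 15.4% higher and 14.9% lower), and 18 in the wild-type (10 higher, 8 lower; 29.5%, against 23.6% of all genes, 10% higher and 13.6% lower), by limma with Benjamini-Hochberg adjustment over all genes at 0.05. The share was thus near that of all genes in the knockout and somewhat above it in the wild-type, and no share of the families was tested against other genes. The median difference was -0.02 over the members in the knockout, against -0.01 over all genes, and 0.06 in the wild-type, against 0.03 over all genes. The lists of members called in the knockout and in the wild-type shared 16 genes, 88.9% of each, and all 16 had the same direction in both. The overlap over all called genes was not counted, and both lists use the same estimate of each gene's spread. In the plot of the difference in one genotype against the other, those 16 lie to the upper right or the lower left of the origin.

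**Figure D1:**
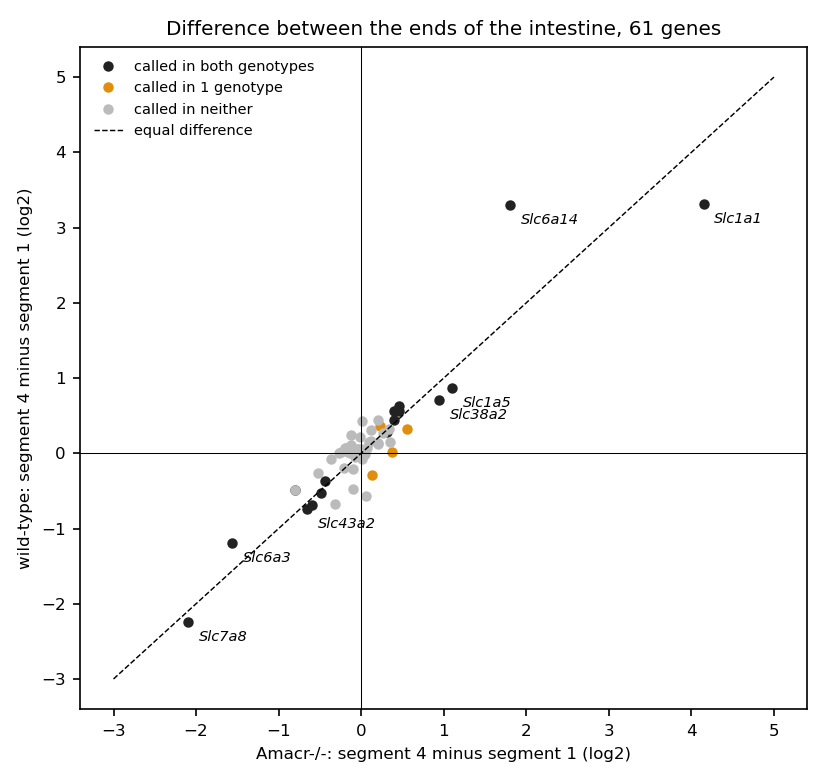
Difference between segment 4 and segment 1 (log2) for the 61 genes, knockout on the x axis and wild-type on the y axis; colours mark members called in both genotypes, in 1 or in neither, and the dashed line marks equal differences. Slc1a1 and Slc6a14 lie farthest up, Slc7a8 and Slc6a3 farthest down.

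The brush border exchanger for cystine and cationic amino acids is built of the heavy chain Slc3a1 and the light chain Slc7a9, the genes altered in cystinuria. The blood side exchanger for large neutral amino acids is built of Slc3a2 and Slc7a8. The first pair was higher and the second lower in segment 4, so the 250 bases before the start of these 4 genes are shown, from RefSeq on GRCm38.p6. Capitals mark 3 motifs searched on both strands: CAAAGTCCA, a form of the HNF4 site, TAATNATTA, the core of the HNF1 site, and a site of the GATA factors, which reads AGATAA. The motifs were chosen after the sequences had been seen. The windows are chr17:85028097-85028346 (plus strand) for Slc3a1, chr7:35448842-35449091 (plus strand) for Slc7a9, chr19:8713898-8714147 (minus strand) for Slc3a2 and chr14:54781887-54782136 (minus strand) for Slc7a8.
Slc3a1: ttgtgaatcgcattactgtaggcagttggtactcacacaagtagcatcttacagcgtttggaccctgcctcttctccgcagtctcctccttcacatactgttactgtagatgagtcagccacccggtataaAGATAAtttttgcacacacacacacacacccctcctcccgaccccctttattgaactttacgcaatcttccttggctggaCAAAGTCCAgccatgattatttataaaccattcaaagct
Slc7a9: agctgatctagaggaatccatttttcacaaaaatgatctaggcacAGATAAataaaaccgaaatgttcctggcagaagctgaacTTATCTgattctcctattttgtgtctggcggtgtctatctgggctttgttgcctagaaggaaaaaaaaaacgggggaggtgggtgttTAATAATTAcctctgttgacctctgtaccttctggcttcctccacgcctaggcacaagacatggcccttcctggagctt
Slc3a2: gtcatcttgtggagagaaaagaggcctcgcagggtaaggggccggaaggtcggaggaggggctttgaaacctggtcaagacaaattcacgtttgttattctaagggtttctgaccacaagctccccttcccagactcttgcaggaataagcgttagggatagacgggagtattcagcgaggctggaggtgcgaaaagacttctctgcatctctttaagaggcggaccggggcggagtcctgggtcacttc
Slc7a8: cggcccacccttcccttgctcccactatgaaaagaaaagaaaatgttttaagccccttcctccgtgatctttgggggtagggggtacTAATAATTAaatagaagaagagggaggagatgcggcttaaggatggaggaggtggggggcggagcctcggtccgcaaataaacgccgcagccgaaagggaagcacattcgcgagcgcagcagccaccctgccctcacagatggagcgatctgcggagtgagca
For Slc7a9 RefSeq lists 2 starts and the window of the start listed at the top is shown. No 2 of the marked motifs overlap. CAAAGTCCA was in 0.384% of 32851 such windows of all genes, TAATNATTA in 0.588% and AGATAA in 9.99%. Of the 43 members with a window, Slc3a1 alone held CAAAGTCCA, Slc7a8, Slc7a9 and Slc7a15 held TAATNATTA, and Slc3a1, Slc7a7, Slc7a9 and Slc15a2 held AGATAA. The members had 64 windows, and a member was counted if any of its windows held the motif. The shares over all genes count single windows, so the 2 counts are not alike. TAATNATTA thus stood before Slc7a9, which was higher in segment 4, and before Slc7a8, which was lower there, and the window of Slc3a2 held none of the 3. A match is a string of letters and was not tested for binding.

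Both genes of the brush border pair were higher in segment 4, by less than 1 log2. Slc7a9 had log2 values of 12.95, 12.87 and 12.98 in segment 4, against 12.54, 12.50 and 12.58 in segment 1, of the knockout, a difference of 0.39 (SE 0.08, adjusted p = 0.000657). In the wild-type its values were 13.08, 12.92 and 12.98 in segment 4, against 12.42, 12.43 and 12.43 in segment 1, a difference of 0.57 (SE 0.08, adjusted p = 1.83e-05). The arrays of the ends did not overlap in either genotype, and segment 3 stood above segment 2 by 0.23 over both (adjusted p = 0.00921). This step lost its call without the 6 arrays high in other markers (0.21, adjusted p = 0.199) or when 1 replicate was left out, which held for wild-type 1 and 2 and for knockout 2 and 3 (0.20 to 0.22, adjusted p from 0.0517 to 0.0709). Slc3a1 had 12.20, 12.07 and 12.43 in segment 4, against 11.72, 11.65 and 11.94 in segment 1, of the knockout (difference 0.46, SE 0.14, adjusted p = 0.0131). Wild-type mice gave 12.22, 12.03 and 12.09, against 11.35, 11.57 and 11.54 (difference 0.63, SE 0.14, adjusted p = 0.00186). The ends did not overlap here either. The knockout difference of Slc3a1 lost its call without knockout replicate 1 (0.46, adjusted p = 0.0725) or without knockout replicate 2 (0.48, adjusted p = 0.0542).

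**Figure D2:**
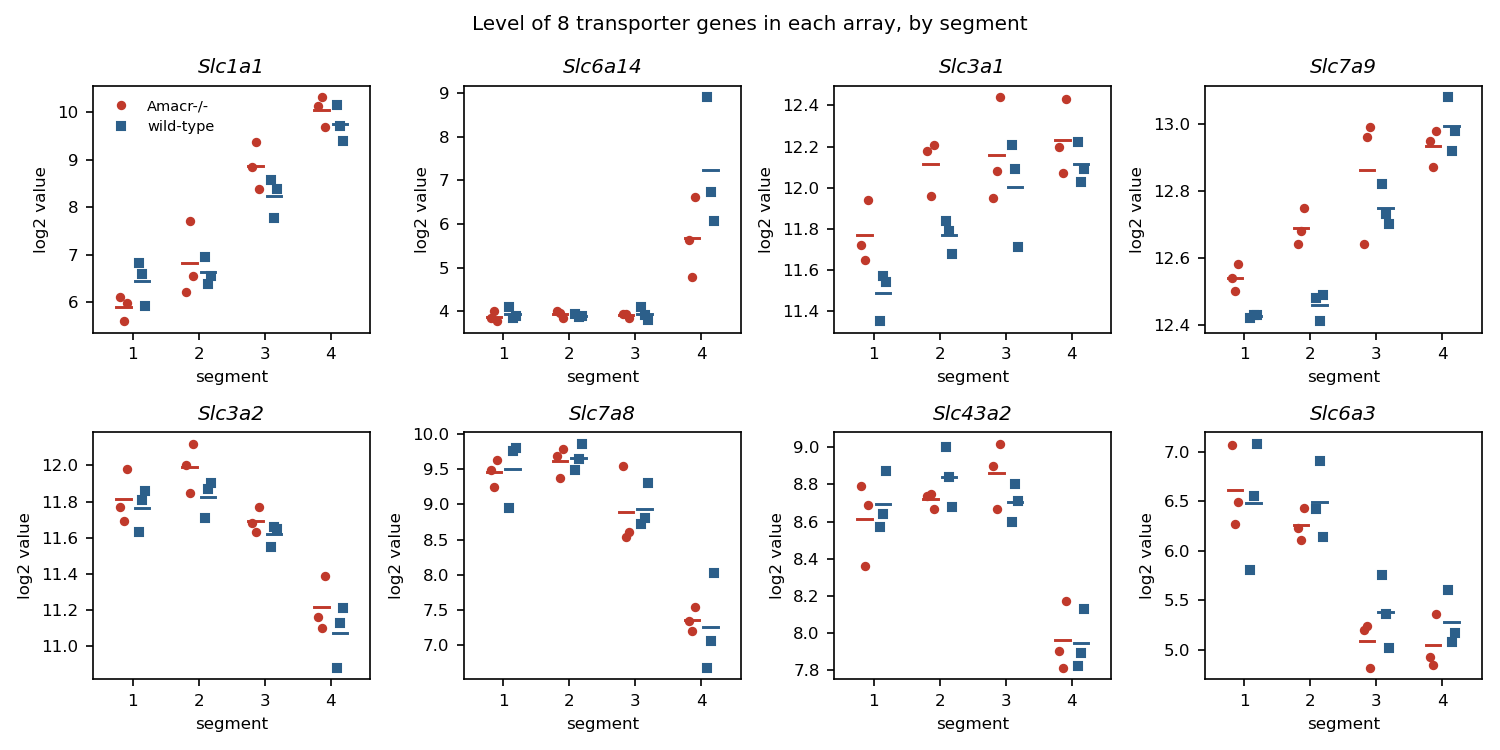
Log2 value of 8 transporter genes in each array by segment (x axis), Amacr-/- as red circles and wild-type as blue squares with a bar at each group mean; every panel has its own y axis. Slc1a1, Slc6a14, Slc3a1 and Slc7a9 are highest in segment 4, and Slc3a2, Slc7a8, Slc43a2 and Slc6a3 are lower there than in segment 1.

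On the blood side, the heavy chain Slc3a2 and the light chain Slc7a8 were lower in segment 4, while the other light chain of the epithelium, Slc7a7, which exports cationic amino acids, gave no call. Slc7a8 had 7.34, 7.20 and 7.54 in segment 4, against 9.49, 9.25 and 9.63 in segment 1, of the knockout, a difference of -2.10 (SE 0.30, adjusted p = 1.96e-05). For the wild-type the values were 6.68, 7.06 and 8.02, against 8.95, 9.75 and 9.80, a difference of -2.25 (SE 0.30, adjusted p = 1.12e-05). Every array of segment 4 lay below every array of segment 1, and the largest step came between segments 3 and 4, where the level fell by 1.61 (log2; adjusted p = 3.01e-05 over both genotypes). The spread in segment 4 was wider in the wild-type than in the knockout, and the mean of 3 genes known from the upper intestine (Gata4, Fabp1 and Lct) spread over the same wild-type arrays, at -2.55, -1.25 and -0.28 log2 from the mean of all arrays in replicates 1 to 3, in the order in which Slc7a8 is given; their part in the spread was not tested. Slc3a2 had 11.16, 11.10 and 11.39 in segment 4, against 11.77, 11.69 and 11.98 in segment 1, of the knockout (-0.60, SE 0.10, adjusted p = 0.000191). In the wild-type it had 10.88, 11.13 and 11.21, against 11.63, 11.81 and 11.86 (-0.69, SE 0.10, adjusted p = 4.98e-05). The fall of the light chain was the deeper, to 0.234 and 0.211 of the segment 1 signal for Slc7a8, against 0.661 and 0.618 for Slc3a2, in knockout and wild-type; the 2 falls were not tested against each other.

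Slc43a2, a uniporter for branched-chain and aromatic amino acids on the blood side, kept to a narrow range over segments 1 to 3 and was lower in segment 4. Its values were 7.90, 7.81 and 8.17 in segment 4, against 8.79, 8.36 and 8.69 in segment 1, of the knockout (-0.65, SE 0.13, adjusted p = 0.000553). In the wild-type they were 7.82, 7.89 and 8.13, against 8.57, 8.64 and 8.87 (-0.75, SE 0.13, adjusted p = 0.000195). Over both genotypes the level fell by 0.83 at the step between segments 3 and 4 (adjusted p = 3.26e-06). Slc7a7 averaged 11.03 ± 0.19 in segment 4 and 11.17 ± 0.31 in segment 1 of the knockout, and 11.14 ± 0.09 and 11.13 ± 0.08 in the wild-type (SD, n = 3); its differences of -0.14 and 0.01 did not pass (adjusted p = 0.461 and 0.970). Slc7a6, a close relative of Slc7a7 with a wide tissue range, was 0.45 higher in the knockout (adjusted p = 0.000193) and 0.56 higher in the wild-type (adjusted p = 2.34e-05) in segment 4, at log2 values of 4.50 to 5.33 over all arrays. Slc7a6os, its neighbour on the opposite strand, differed by 0.13 in the knockout (adjusted p = 0.306) and was lower in segment 4 of the wild-type (-0.28, adjusted p = 0.0283), a call lost without wild-type replicate 1 (-0.23, adjusted p = 0.211) or replicate 2 (-0.29, adjusted p = 0.109), and without knockout replicate 2 (-0.28, adjusted p = 0.0538). Slc7a5 and Slc43a1, other carriers of large neutral amino acids, and the light chain gene Slc7a15 passed no comparison.

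The 2 largest measured rises were those of Slc1a1 and Slc6a14, and they differed in shape along the intestine. Slc1a1, the sodium-coupled carrier of glutamate and aspartate in the brush border, had 10.14, 10.32 and 9.70 in segment 4, against 6.12, 5.60 and 5.99 in segment 1, of the knockout. The difference was 4.15 (SE 0.34, adjusted p = 2.14e-08), or 17.8-fold. The corresponding wild-type arrays had 10.16, 9.71 and 9.40, against 6.83, 6.59 and 5.93, a difference of 3.31 (SE 0.34, adjusted p = 5.31e-07). The rise was spread over the lower segments: segment 3 lay 1.82 above segment 2 (adjusted p = 5.29e-05) and segment 4 a further 1.35 above segment 3 (adjusted p = 0.000805), over both genotypes.

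Slc6a14, a carrier of neutral and cationic amino acids driven by sodium and chloride, was at log2 values of 3.77 to 4.10 in all 18 arrays of segments 1 to 3. In segment 4 it had 5.64, 4.79 and 6.61 in the knockout and 8.90, 6.74 and 6.07 in the wild-type. Each array of segment 4 lay above all 18 others, and the groups of the genotypes overlapped there. Slc6a11 and Slc6a12, low on all arrays, lay at 3.84 to 4.35 and at 3.79 to 4.29, so the level of Slc6a14 in segments 1 to 3 was that of a low signal, and differences from it may understate the change. The difference between segments 4 and 1 was 1.81 in the knockout (SE 0.46, adjusted p = 0.00517) and 3.29 in the wild-type (SE 0.46, adjusted p = 2.19e-05), and the step between segments 3 and 4 was 2.54 over both (adjusted p = 2.63e-05). The knockout difference was not called without knockout replicate 1 (1.81, adjusted p = 0.0522) or replicate 3 (1.29, adjusted p = 0.108). The interaction of genotype and segment did not pass for Slc6a14 (adjusted p = 0.835).

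The neutral amino acid exchangers of the Slc1 family were also higher in segment 4, by smaller amounts. Slc1a5, which exchanges glutamine and other small neutral amino acids, had 7.40, 7.42 and 7.13 in segment 4, against 6.32, 6.11 and 6.22 in segment 1, of the knockout (1.10, SE 0.28, adjusted p = 0.00558). The wild-type values were 7.17, 7.26 and 7.13, against 6.51, 6.43 and 6.02 (0.87, SE 0.28, adjusted p = 0.0321). The ends did not overlap in either genotype. The wild-type call was lost without any 1 wild-type replicate (0.97, 0.89 and 0.74 without replicates 1, 2 and 3, adjusted p from 0.0978 to 0.193), and the knockout call without knockout replicate 2 (0.99, adjusted p = 0.0567). Slc1a4, a related exchanger, was called in the wild-type alone (0.36, adjusted p = 0.00711), with 0.22 in the knockout (adjusted p = 0.0737), and lost its call without wild-type replicate 2 (0.35, adjusted p = 0.0543) or replicate 3 (0.33, adjusted p = 0.0762). The difference between the genotypes in this rise was not called (interaction adjusted p = 0.861).

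The sodium-coupled carriers of the Slc38 family divided by direction. Slc38a2, which takes up small neutral amino acids and is induced when they are scarce, had 9.50, 10.07 and 9.48 in segment 4, against 8.65, 8.87 and 8.70 in segment 1, of the knockout (0.94, SE 0.24, adjusted p = 0.00425). In the wild-type it had 9.23, 9.66 and 9.23, against 8.73, 8.88 and 8.38 (0.71, SE 0.24, adjusted p = 0.0335). The arrays of the ends did not overlap. Its wild-type call was lost without any 1 wild-type replicate (0.81, 0.68 and 0.64 without replicates 1, 2 and 3, adjusted p from 0.0633 to 0.179) and its knockout call without knockout replicate 2 (0.81, adjusted p = 0.0630). Its neighbour on chromosome 15, Slc38a1, a glutamine carrier, was 0.40 higher in the knockout (adjusted p = 0.0102) and 0.44 higher in the wild-type (adjusted p = 0.00637), calls that were lost without knockout replicate 1 (0.36, adjusted p = 0.0970) or 2 (0.34, adjusted p = 0.137) and without wild-type replicate 2 (0.45, adjusted p = 0.0674). Slc38a4, the next gene, lay at 3.34 to 3.59 on all arrays and gave no call.

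Slc38a10 and Slc38a7 were lower in segment 4. Slc38a10 had 8.83, 8.72 and 8.88, against 9.31, 9.31 and 9.28 in segment 1, of the knockout (-0.49, SE 0.10, adjusted p = 0.00118). For the wild-type the values were 8.79, 8.78 and 8.81, against 9.15, 9.37 and 9.44 (-0.53, SE 0.10, adjusted p = 0.000810). The ends did not overlap, and the level fell by 0.30 at the step between segments 2 and 3 and by 0.29 at that between segments 3 and 4 (adjusted p = 0.0106 and 0.0133). Without wild-type replicate 2 or knockout replicate 1 neither step was called (adjusted p from 0.0518 to 0.0939), nor the later one without knockout replicate 2 (adjusted p = 0.106). Slc38a7, a glutamine carrier of lysosomes, differed by -0.44 in the knockout (adjusted p = 0.0135) and by -0.37 in the wild-type (adjusted p = 0.0427). Its calls were lost without knockout replicate 2 (-0.36, adjusted p = 0.128) or 3 (-0.42, adjusted p = 0.0518), and without wild-type replicate 2 (-0.27, adjusted p = 0.319) or 3 (-0.37, adjusted p = 0.177). Renewed quantile normalization also ended the wild-type call (-0.31, adjusted p = 0.104).

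In the Slc6 family, the carriers of creatine and of dopamine were lower in segment 4. Slc6a8, the creatine transporter, had 11.50, 11.49 and 11.82 in segment 4, against 12.35, 12.37 and 12.48 in segment 1, of the knockout (-0.80, SE 0.11, adjusted p = 1.65e-05). Wild-type arrays read 11.44, 11.54 and 11.69, against 12.01, 12.01 and 12.10 (-0.48, SE 0.11, adjusted p = 0.00315; -0.44 and adjusted p = 0.0503 without wild-type replicate 1). Segment 4 arrays lay below all segment 1 arrays, and the step between segments 3 and 4 was -0.54 (adjusted p = 9.77e-05). Slc6a3, the dopamine transporter, had 4.93, 4.85 and 5.36 in segment 4, against 7.07, 6.27 and 6.49 in segment 1, of the knockout (-1.56, SE 0.28, adjusted p = 0.000230). In the wild-type it had 5.61, 5.08 and 5.17, against 5.81, 6.55 and 7.08 (-1.19, SE 0.28, adjusted p = 0.00347), a call lost without wild-type replicate 2 (-1.05, adjusted p = 0.0648) or 3 (-0.83, adjusted p = 0.0690). Its step came earlier than that of Slc6a8, with segment 3 below segment 2 by a log2 difference of -1.14 (adjusted p = 0.000698).

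The main brush border carriers of neutral amino acids and proline gave no call along the intestine. Slc6a19, the sodium-coupled carrier altered in Hartnup disease, averaged 11.26 ± 0.19 in segment 4 and 11.62 ± 0.13 in segment 1 of the knockout, and 11.14 ± 0.21 and 11.21 ± 0.23 in the wild-type (SD, n = 3). Its differences of -0.36 and -0.07 did not pass (adjusted p = 0.0734 and 0.780), and the knockout one passed when the arrays were centred on their medians (-0.40, adjusted p = 0.0464). Slc6a20a, the imino acid carrier, differed by -0.32 and -0.67 (adjusted p = 0.486 and 0.121), and in the wild-type by -0.99 without the 6 arrays high in other markers (adjusted p = 0.0382) and by -0.72 without wild-type replicate 1 (adjusted p = 0.0359). Its neighbour and close copy Slc6a20b was lower in segment 2 than in segment 1 over both genotypes (-1.11, SE 0.23, adjusted p = 0.00449). Probes of near-identical copies may share signal, so the values of Slc6a20a and Slc6a20b are uncertain. Slc6a18, the relative of Slc6a19 that is best known from kidney, lay at 5.12 to 5.87 on all arrays and passed no comparison.

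Other Slc6 members moved by less. Slc6a7, a proline carrier known from brain, was 0.32 higher in segment 4 of the knockout (adjusted p = 0.0190) and 0.28 higher in the wild-type (adjusted p = 0.0482), at log2 values of 6.75 to 7.47 over all arrays. These calls were lost without knockout replicate 1 (0.29, adjusted p = 0.126) or 3 (0.24, adjusted p = 0.155), without any 1 wild-type replicate (adjusted p from 0.0751 to 0.239), and, for both genotypes, after centring the arrays on their medians (0.28 and 0.24, adjusted p = 0.0542 and 0.111) or without the 6 arrays high in other markers (0.33 and 0.28, adjusted p = 0.0595 and 0.123). The wild-type call was also lost without knockout replicate 1 (adjusted p = 0.0799) and by eBayes with trend and robust (adjusted p = 0.0575). Slc6a9, a glycine transporter, differed among the segments by limma's moderated F test in the knockout (adjusted p = 0.0205) and in the wild-type (adjusted p = 0.0233), with its highest mean in segment 3 of both. The knockout call was lost without knockout replicate 1 or 2 (adjusted p up to 0.107) and the wild-type call without any 1 wild-type replicate (adjusted p from 0.0641 to 0.202). Slc6a4, the serotonin transporter, was lower in segment 4 than in segment 3 over both genotypes (-0.54, SE 0.17, adjusted p = 0.0396), a call lost without any 1 wild-type replicate (adjusted p from 0.104 to 0.180) or knockout replicate 1 (-0.51, adjusted p = 0.0750), without the 6 arrays high in other markers (-0.57, adjusted p = 0.0662) and after renewed quantile normalization (-0.51, adjusted p = 0.0602). Slc7a1, a carrier of cationic amino acids, was 0.56 higher in segment 4 of the knockout (adjusted p = 0.0212), and 0.32 in the wild-type (adjusted p = 0.219); the knockout call was lost without knockout replicate 1 (0.56, adjusted p = 0.0692) or 2 (0.48, adjusted p = 0.172).

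The peptide transporter of the brush border, Slc15a1, takes up di- and tripeptides with protons, and its highest mean was in segment 3 of both genotypes. It had 11.41, 11.34 and 11.44 in segment 3 of the knockout, against 10.88, 10.61 and 10.72 in segment 1 and 10.78, 10.52 and 10.93 in segment 4. The wild-type values were 10.97, 11.75 and 11.33 in segment 3, against 10.07, 10.25 and 10.77 in segment 1 and 10.34, 10.66 and 11.39 in segment 4. In the knockout the arrays of segment 3 lay above all those of the other segments, while in the wild-type segment 3 overlapped segments 2 and 4. Variation among segments passed in the wild-type (adjusted p = 0.0277) and not in the knockout (adjusted p = 0.104), and segment 4 lay below segment 3 over both (-0.60, SE 0.17, adjusted p = 0.0216). The step was not called without wild-type replicate 2 (-0.47, adjusted p = 0.204), knockout replicates 1, 2 or 3 (-0.61, -0.56 and -0.64, adjusted p from 0.0588 to 0.0985) or the 6 arrays high in other markers (-0.59, adjusted p = 0.0573), and the variation in the wild-type was not called without wild-type replicate 2 (adjusted p = 0.393), knockout replicate 3 (adjusted p = 0.0589) or those 6 arrays (adjusted p = 0.136). Slc15a4, a carrier of histidine and peptides in lysosomes and endosomes, varied among the segments of the knockout (adjusted p = 0.0287), a call lost without the 6 arrays high in other markers (adjusted p = 0.371), knockout replicate 1 (adjusted p = 0.187) or 3 (adjusted p = 0.0541) and without wild-type replicate 1 (adjusted p = 0.0518) or 2 (adjusted p = 0.0670). Centring on medians and renewed quantile normalization ended it too (adjusted p = 0.0518 and 0.0581). Slc36a2 and Slc36a3, members of the proton-coupled family, gave no call; Slc36a3 was the more variable among wild-type segments (adjusted p = 0.392).

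By the F test, 20 members varied among the 4 segments in the knockout (32.8%, against 28.3% of all genes) and 15 in the wild-type (24.6%, against 22.7%), shares close to those of all genes. Of these, 12 were in both lists, 60% of the knockout list and 80% of the wild-type list. Here too the overlap over all called genes was not counted. In the knockout, the highest mean was in segments 1, 2, 3 and 4 for 4, 5, 2 and 9 members; in the wild-type for 0, 6, 2 and 7. Members whose highest mean was in segment 2 in both genotypes were Slc3a2, Slc6a8, Slc7a8 and Slc38a10. Over both genotypes, 2 members differed between segments 2 and 1, both lower in segment 2 (3.28%, against 7.02% of all genes; Slc6a20b and Slc38a9), 7 between segments 3 and 2 (11.5%, against 10.7%) and 10 between segments 4 and 3 (16.4%, against 12.2%). At this last step, 3 members were higher and 7 lower (6.11% of all genes each way). Slc38a9, a lysosomal member that senses arginine, differed by -0.29 between segments 2 and 1 (adjusted p = 0.0233), not called without the 6 arrays high in other markers (-0.35, adjusted p = 0.156), after renewed quantile normalization (-0.26, adjusted p = 0.0508), or with wild-type replicate 1, wild-type replicate 3, knockout replicate 2 or knockout replicate 3 left out (-0.25 to -0.30, adjusted p from 0.0586 to 0.153). In all, 27 members were called in at least 1 comparison of segments, and the same count over all genes was not made.

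**Figure D3:**
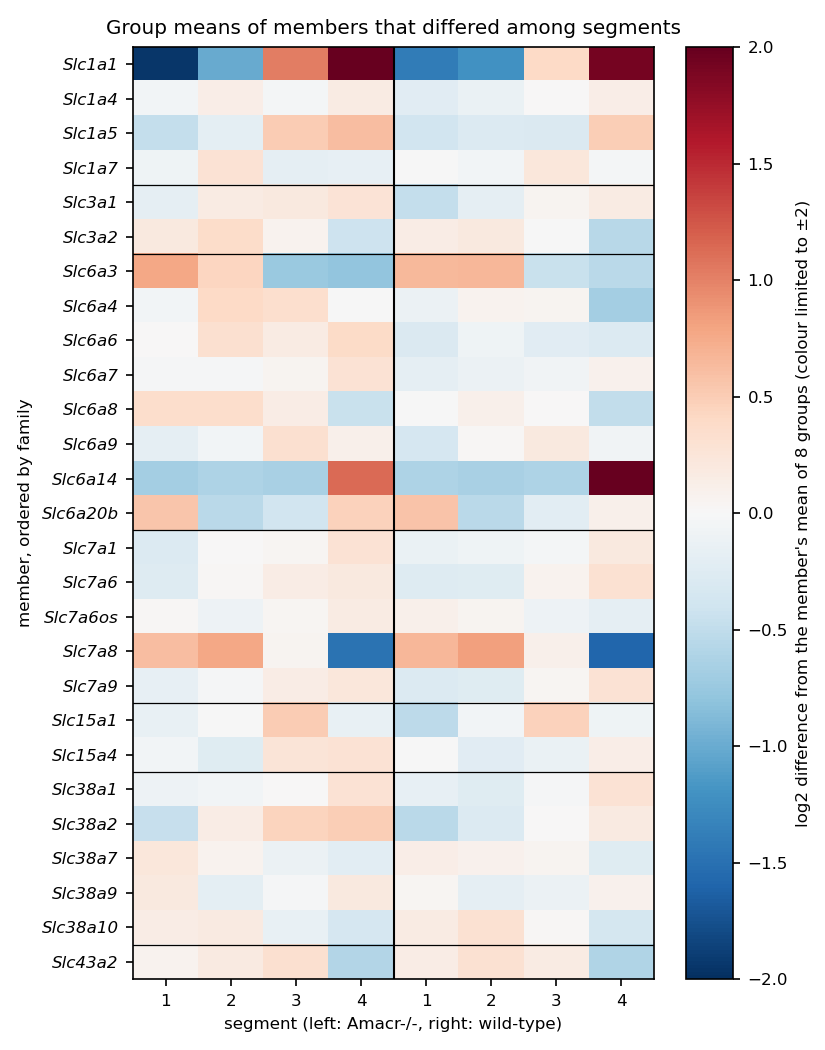
Group means of the 27 members called in at least 1 comparison of segments, as the log2 difference from each gene's mean over the 8 groups (colour, limited to 2 either way), with segments 1 to 4 of Amacr-/- on the left and of wild-type on the right and families parted by lines. On both sides Slc1a1 and Slc6a14 are highest and Slc7a8 is lowest in segment 4. The means of Slc1a7 and Slc7a6os run in opposite ways on the left and on the right. The interaction of genotype and segment was called for 0 of 61 members, so these opposite courses do not show that the genotypes differ. Slc1a7 is shown for its variation among knockout segments. That call of the moderated F test was lost without knockout replicate 3 (adjusted p = 0.0631).

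Of the 34 members called in no comparison, 17 had a mean below 5 on the log2 scale. Over the 61 members 19 had such a mean, and 13 stayed below 5 on all 24 arrays: Slc1a6, Slc6a5, Slc6a11, Slc6a12, Slc6a13, Slc6a15, Slc7a2, Slc7a11, Slc7a12, Slc7a14, Slc15a5, Slc38a4 and Slc38a5. Several of these are known from brain, kidney or liver. Slc6a14 and Slc7a6 also had a mean below 5 and were called. Over all genes, 10809 of 15267 had a mean of at least 5, as did 42 of the 61 members. Markers of other cell types moved with the segments too. The mean of 3 measured Paneth cell markers of 6 listed was 0.85 to 2.31 above the mean of all arrays in segment 4, and -2.38 to -0.70 relative to it in segment 1. That of 6 proliferation markers of 8 was 0.45 to 1.36 above it in segment 4, and -1.10 to 0.65 relative to it in segment 1. Goblet cell markers (6 of 7 measured) were 0.34 to 0.46 above it in segment 4, and T cell markers (7 of 8) were 0.39 to 0.71 above it in segment 1. Wild-type replicate 1 of segment 2 (0.45) and knockout replicate 3 of segment 3 (0.41) also lay in that T cell range. The part of all these cell types in the differences of the transporters was not tested.

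The comparison of the knockout with the wild-type, which is the series' own question, called no member in any segment. Adjusted over all genes by limma, 0 members passed in segments 1 to 4 (against 0.111%, 0.0721%, 0.0262% and 0.0655% of all genes), 0 over the whole intestine (against 0.0262%) and 0 for the interaction of genotype and segment (against 0%). At an unadjusted p under 0.05 there were 4, 10, 5 and 4 members in segments 1 to 4, 6 over the whole intestine and 4 for the interaction. These were 6.56%, 16.4%, 8.2% and 6.56% of the members in segments 1 to 4 (against 11.4%, 6.81%, 8.14% and 4.9% of all genes), 9.84% over the whole intestine (against 7.79%) and 6.56% for the interaction (against 5.94%). The median difference of the members was 0.05, 0.06, -0.01 and 0.01 in segments 1 to 4, against 0.01, 0.01, -0.02 and -0.00 over all genes. Over the members and segments, 8 differences were larger than 0.5 in size.

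The member nearest to a call was Slc6a6, the taurine transporter; taurine is the amino acid that mouse liver joins to bile acids. In segment 1 it had 9.51, 9.18 and 9.66 in the knockout, against 9.14, 9.21 and 9.14 in the wild-type. In segment 2 it had 9.66, 9.61 and 10.02 in the knockout, against 9.38, 9.23 and 9.50 in the wild-type. The arrays overlapped in segment 1, through knockout replicate 2, and not in segment 2. In segment 3 it had 9.64, 9.43 and 9.76 in the knockout, against 9.19, 9.12 and 9.36 in the wild-type, and in segment 4 it had 9.75, 9.60 and 10.13, against 9.12, 9.21 and 9.21. Knockout and wild-type arrays did not overlap in segments 3 and 4 either. The differences in segments 1 to 4 were 0.29, 0.39, 0.39 and 0.65 (SE 0.14 each), with adjusted p of 0.451, 0.534, 0.534 and 0.124. Over the whole intestine the difference was 0.43 (SE 0.11, adjusted p = 0.367), higher in the knockout in 4 of 4 segments. Without knockout replicate 2 the difference in segment 4 was 0.76 and passed (adjusted p = 0.0324). It did not pass with any other replicate of either genotype left out (0.495 to 0.685, adjusted p from 0.305 to 0.616). Nor did it pass with the arrays of segment 4 alone (0.65, adjusted p = 0.525) or without the 6 arrays high in other markers (0.65). Within the knockout, Slc6a6 was 0.38 higher in segment 4 than in segment 1 (adjusted p = 0.0467), a call lost without any 1 of the 6 replicates (adjusted p from 0.0571 to 0.101) and after centring (0.34, adjusted p = 0.0766); in the wild-type the difference was 0.02.

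**Figure D4:**
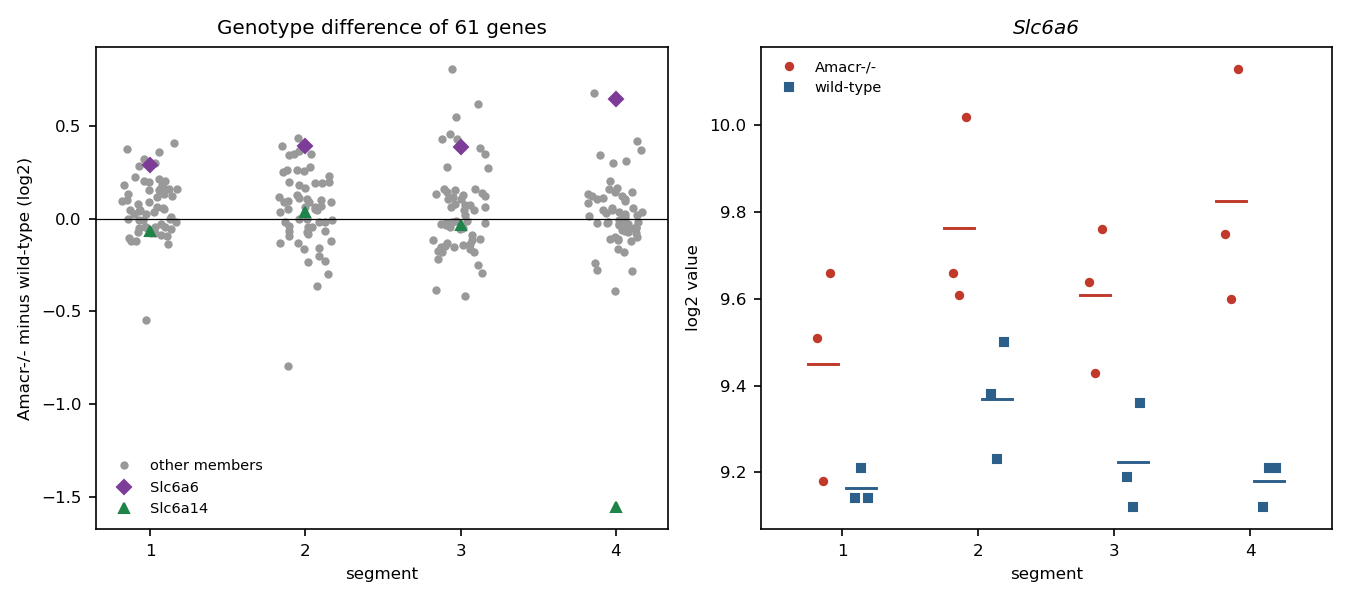
Left: difference between Amacr-/- and wild-type (log2) of the 61 genes in each segment, with Slc6a6 as diamonds and Slc6a14 as triangles. Right: log2 value of Slc6a6 in each array by segment, with bars at the means; the knockout arrays lie above all wild-type arrays in segments 2, 3 and 4.

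The largest genotype difference in size was that of Slc6a14 in segment 4, -1.56 (SE 0.46, adjusted p = 0.514), where knockout replicate 3 stood above wild-type replicate 3. It rested on the 8.90 of wild-type replicate 1, without which it was -0.73. The next were Slc1a5 and Slc15a2. Slc1a5 in segment 3 had 6.69, 6.65 and 8.30 in the knockout, against 6.36, 6.13 and 6.73 in the wild-type (0.81, adjusted p = 0.511; 0.26 without knockout replicate 3). Slc15a2, the peptide transporter best known from kidney, had 5.72, 5.66 and 5.01 in segment 2 of the knockout, against 6.02, 6.70 and 6.06 in the wild-type (-0.80, adjusted p = 0.674), without overlap, and was lower in the knockout in 4 of 4 segments. The high value of Slc1a5 came from knockout replicate 3 of segment 3, an array whose 6 measured fat cell markers averaged 3.38 above the mean of all arrays. On that array Slc36a2 was at 7.23, against 5.33 and 5.47 on the other knockout arrays of the segment, Slc7a10 at 7.10, against 5.56 and 5.49, and Slc43a3 at 5.95, against 4.23 and 4.14; the part of fat cells in these values was not tested.

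The remaining members with the largest genotype differences in each direction were spread over the families, and none was called. In segment 1 these were Slc6a19 (0.41, adjusted p = 0.319), Slc15a1 (0.37), Slc1a1 (-0.55, adjusted p = 0.557) and Slc7a1 (-0.14). In segment 2 they were Slc38a2 (0.43), Slc38a3 (0.39, adjusted p = 0.398) and Slc43a3 (-0.37). In segment 3 they were Slc1a1 (0.62, adjusted p = 0.638), Slc1a7 (-0.42, adjusted p = 0.469) and Slc7a15 (-0.38). In segment 4, Slc6a4 had 9.44, 8.46 and 9.29 in the knockout, against 8.38, 8.38 and 8.40 in the wild-type (0.68, SE 0.23, adjusted p = 0.715), without overlap, and Slc15a2 differed by -0.39. Slc1a1 had opposite signs in segments 1 and 3, and its interaction did not pass (adjusted p = 0.865).

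Differences of the same sign in 4 of 4 segments were found for 13 members, 10 of them higher in the knockout (16.4%, against 9.03% of all genes) and 3 lower (4.92%, against 9.22%). Higher in the knockout were Slc3a1, Slc3a2, Slc6a4, Slc6a6, Slc6a7, Slc6a8, Slc6a19, Slc6a20a, Slc38a1 and Slc38a2, and lower were Slc7a4, Slc15a2 and Slc15a3. The segments of a genotype share its 3 replicate numbers, so these are not 4 separate tests. The knockout arrays lay above all wild-type arrays in segments 1 to 4 for 8, 12, 2 and 4 members (13.1%, 19.7%, 3.28% and 6.56%, against 8.02%, 5.74%, 3.97% and 5.82% of all genes), and below them for 0, 2, 5 and 3 members (0%, 3.28%, 8.2% and 4.92%, against 8.67%, 3.76%, 6.89% and 4.88%). The 12 of segment 2 were Slc1a4, Slc1a7, Slc3a1, Slc6a6, Slc6a8, Slc6a19, Slc7a6, Slc7a7, Slc7a9, Slc7a15, Slc38a3 and Slc38a4. In that segment 3 of 6 arrays were high in markers of smooth muscle or fat, knockout replicates 1 and 3 and wild-type replicate 3; their part in the count was not tested.

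Slc1a3, a glutamate carrier known from glia, lies on chromosome 15 with 17 protein-coding genes between it and Amacr, in the RefSeq annotation. Its differences were -0.12, -0.07, 0.28 and -0.01 in segments 1 to 4, and none was called. The value of segment 3 rested on knockout replicate 3, at 5.47 against 4.57 and 4.46 on the other knockout arrays, and was -0.04 without it. Slc38a1, Slc38a2 and Slc38a4 lie next to each other on the same chromosome, with 546 protein-coding genes between Amacr and Slc38a1. Their genotype differences gave no call either. On other chromosomes, Slc7a10, with 6 protein-coding genes between it and Slc7a9, gave no call along the intestine, nor did Slc6a18 and Slc6a19, with 2 genes between Slc6a3 and Slc6a18.

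Partner genes and genes of the response to amino acid shortage were compared in the same fit. Of 8 measured partner genes, which include the anchor Cltrn, the scaffold Pdzk1 and mitochondrial aspartate and ornithine carriers, 2 differed between segment 4 and segment 1 in the knockout (25%, against 30.3% of all genes) and 1 in the wild-type (12.5%, against 23.6%). Slc25a13, a mitochondrial exchanger of aspartate and glutamate, was lower in both (-0.90 and -0.92), and its relative Slc25a12 was called higher in the knockout alone (0.65, adjusted p = 0.0258). Of 12 measured response genes, 7 differed in the knockout, 4 higher and 3 lower (58.3%, against 30.3% of all genes), and 4 in the wild-type, 2 higher and 2 lower (33.3%, against 23.6%); these shares were not tested against each other. The serine synthesis enzyme Psat1 was higher in segment 4 in both (1.15 and 0.88). Called higher in the knockout alone were asparagine synthetase Asns (1.29, adjusted p = 0.00300), Chac1, which degrades glutathione (0.91), and the transcription factor Atf4 (0.44). Phgdh, another enzyme of serine synthesis, was called lower there alone (-0.49). Eif4ebp1, an inhibitor of translation, was called higher in the wild-type alone (0.59). Trib3, a pseudokinase, and the transcription factor Cebpb were lower in both (-0.77 and -0.71, and -0.49 and -0.89). In the wild-type, Asns had 7.84, 8.06 and 7.10 in segment 4, against 7.65, 6.86 and 6.61 in segment 1. Chac1 had 6.09, 5.74 and 5.39 there, against 5.13, 4.93 and 5.16. Atf4 had 10.55, 11.08 and 10.74, against 10.62, 10.59 and 10.46, and Phgdh 8.92, 8.85 and 8.95, against 8.73, 9.13 and 8.44. Eif4ebp1 in the knockout had 7.89, 7.80 and 8.11, against 7.47, 7.81 and 7.50. The interaction of genotype and segment was called for 0 of the 8 partner and 0 of the 12 response genes (against 0% of all genes). A call in 1 genotype alone thus does not show that the genotypes differ. Between the genotypes, 1 of these 20 genes was called, in segment 2 (8.33% of the response genes, against 0.0721% of all genes). Calls of partner and response genes were not checked under other processing or with replicates left out. Chac1 had 6.42, 5.88 and 6.83 in segment 2 of the knockout, against 5.04, 5.07 and 5.04 in the wild-type (1.33, SE 0.24, adjusted p = 0.0363). Knockout replicates 1 and 3 of this segment (6.42 and 6.83) and wild-type replicate 3 (5.04) were high in markers of other tissues. The part of those tissues in the difference was not tested.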

How the data were processed

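Total RNA of the scraped layer was labelled with biotin and measured on 1-colour arrays, 1 per sample, per the labels. The authors deposited log2 values, which RMA produced according to the submitters' processing notes; its version, the base of the logarithm and the genome build are not given in the sources used here, and folds take the base as 2. RMA equalizes the arrays and compresses low values. Of 16556 probe sets, 15270 name 1 gene in the platform's annotation, 0 name several, 64 are controls and 1222 are unnamed. For 3 genes with 2 probe sets the higher mean was kept, leaving 15267 genes. RefSeq (GRCm38.p6) gave names and neighbours. Array medians were 6.11 to 6.20, values 2.93 to 14.74 and correlations between replicate arrays 0.979 to 0.995; 0 pairs held the same values.

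limma 3.58.1 in R 4.3.3 (lmFit, eBayes; 8 group means, 16 residual degrees of freedom, prior 3.35) was fitted to all 24 arrays and genes, with Benjamini-Hochberg adjustment and calls at 0.05. The whole-intestine difference averaged each number's 4 segments and compared 3 values with 3. The labels call the samples biological replicates. Variation among segments and the interaction were moderated F tests. All p-values marked as adjusted come from these fits. No filter was applied. Steps were tested on simulated data with known changes, in which the arrays varied independently. Those runs check the code and not the calls made here.

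The members, gene lists and tests were chosen with earlier results of these data known. The text names absorptive transporters listed by function (Slc36a1 among them, not analysed here), the 8 largest called rises and falls of segment 4 in the wild-type, the most variable member per family, the 2 largest genotype differences each way per segment, members on the chromosome of Amacr, and at least the 4 largest called members, where there were as many, of the partner and response lists per comparison of the ends or genotypes. Other called members, and those high on the array with fat markers, were named after their values were seen. The alternatives tried were a minimum mean of 5 (10809 genes left, 42 members), centring on medians, quantile normalization once more, eBayes with trend and robust, the arrays of 1 segment, the replicate number as a block, leaving out each replicate of a genotype in all its segments, and leaving out the 6 arrays with markers of other tissues over 1 log2 above their mean.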

Additional observations from a re-analysis of the deposited data

How the results depend on the processing

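No call of a member turned direction. In both genotypes, 7 members kept their call between segments 4 and 1 under each alternative that held them (Slc7a6 falls under the minimum mean of 5): Slc1a1, Slc3a2, Slc7a6, Slc7a8, Slc7a9, Slc38a10 and Slc43a2. The replicate numbers were not taken to pair the arrays, as not every pair's deviations correlated above 0.1. Same-numbered arrays of a genotype correlated at -0.02 to 0.44 on average, with 0.39 to 0.52 for the 6 pairs of wild-type number 1. Of 24 arrays, 10 correlated best with their own number, out of the 3 numbers of the genotype. With the replicate block, 1 member passed in segment 4 between the genotypes (Slc6a6, 0.65, adjusted p = 0.0120) in place of 0. For the genotypes this block pairs knockout and wild-type arrays of the same number, which the labels do not pair. Deviations of those arrays correlated at -0.24 to 0.29 within a segment, so this pairing has no shown basis. Between segments 2 and 1, 5 members passed with the block in place of 2. Averaging the 4 contrasts in the fit of all arrays, which counts segments as replicates, called 1 member over the whole intestine in place of 0 (Slc6a6, adjusted p = 0.00274); with the 6 arrays high in other markers left out it was not called (0.36, adjusted p = 0.0814). That omission could not be fitted to the segment means, and this pair of changes was added after the data were seen. Without those arrays, 4 members passed between segments 3 and 2 in place of 7, and 2.9% of all genes in place of 10.7%. Leaving out replicates gave ranges of 0 to 1 for segment 4 between genotypes (1 without knockout replicate 2), 1 to 3 for segment 2 against 1 (1 without wild-type replicate 1, wild-type replicate 3 or knockout replicate 2), 2 to 8 for segment 3 against 2 (2 without wild-type replicate 2, 4 without knockout replicate 1), 6 to 11 for segment 4 against 3 (6 without either), 11 to 17 for segment 4 against 1 in the knockout (11 without knockout replicate 2) and 10 to 18 in the wild-type (10 without wild-type replicate 2), and 11 to 20 for variation in the knockout (11 without knockout replicate 3, 13 without replicate 1) and 8 to 16 in the wild-type (8 without wild-type replicate 2). Apart from the 2.9% above, these counts have no share of all genes beside them, so they do not compare the members with other genes. The 3 arrays a group and the low signal of 19 members limit what could be called.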
